A study of Mus musculus with 9 samples.

Results

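Proteasome subunit genes were examined in pancreatic islets of mice that lack Raptor in insulin-expressing cells. The proteasome is the protease complex that degrades ubiquitin-tagged proteins. Its core particle is a barrel of alpha and beta rings with the catalytic sites inside, and its regulatory particle is a cap of ATPases (the Psmc genes) and non-ATPase subunits (Psmd genes) that binds, unfolds and feeds in the substrate. Raptor is the scaffold subunit of mTORC1, a kinase complex that promotes protein synthesis, and mTORC1 has also been linked to proteasome gene expression through the transcription factor Nfe2l1. Beta cells make very large amounts of secreted protein and degrade misfolded proinsulin through this protease.

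The genes were chosen by name. Every gene whose symbol on the array annotation starts with Psma to Psmg and a number was taken, apart from the immunoproteasome subunits Psmb8, Psmb9 and Psmb10, which are given separately. This gave 46 genes of the 18193 with a probe set of their own. The 46 comprised 14 core particle subunits, 17 regulatory particle subunits, 3 activators, 1 inhibitor, 4 chaperones of core assembly, 3 chaperones of regulatory particle assembly, the tissue-specific core subunits Psma8 and Psmb11, and Psmc3ip and Psme3ip1. The last pair share the symbol but are not subunits. The activator Psme2 was represented only by a probe set shared with a second gene and was left out. Psma8, a testis subunit, and Psmb11, a thymus subunit, were among the 25 percent of genes with the lowest means, which were left out, so that 44 of the 46 were among the 13644 genes tested.

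RNA was taken from islets of male mice aged 8 weeks and hybridised to Affymetrix mouse expression arrays. The 4 KO arrays came from βRapKO mice, in which both floxed Raptor alleles are excised by Cre recombinase under the rat insulin promoter. The 5 WT arrays came from littermates with the same floxed alleles and no Cre, so that a Cre-only control was not part of the comparison. The labels give the strain as C57BL/6, whereas the methods describe a Cre line of mixed strain. Each array held islets pooled from 5 animals of one genotype. Signals are log2 values as deposited, each gene is read from its brightest probe set, and a difference is the KO mean minus the WT mean on the log2 scale. Levels of different genes cannot be compared on this array, because probe sets differ in how strongly they bind.

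Raptor itself (Rptor) read 9.53, 9.59, 9.71, 9.22 and 9.30 in the WT arrays and 8.59, 8.48, 9.21 and 8.73 in the KO arrays. KO array 3 lay just below the lowest WT array, so that the groups barely parted. The difference was -0.72 ± 0.17 (SE, limma adjusted p = 0.041), and over 18 alternative settings the adjusted p ran from 0.0127 to 0.888. Without any single array other than WT array 4 or KO array 3 the call was lost (limma adjusted p from 0.0513 to 0.115, difference from -0.76 to -0.63). With the mean of its 3 probe sets the difference was -0.16 (limma adjusted p = 0.888), so that the fall rests mainly on the brightest one. Whether its brightest probe set lies in the deleted part of the gene was not known here. Islets hold other cells that keep Raptor, and in such bulk RNA fewer cells of a type cannot be told apart from less RNA per cell.

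Markers of cell types also differed between the groups. Of 8 beta cell markers tested, 5 were called lower in KO (Nkx6-1, Pdx1, Slc2a2, Slc30a8 and Ucn3). The mean over the 8 was lower, with a log2 difference of -0.62. Ins2 (-0.05) and Iapp (-0.12) were among those not called and had overlapping groups. G6pc2 (-0.24) was not called either, but its groups did not overlap. Of 3 alpha cell markers 0 were called, and of 3 delta cell markers 1 was called higher (Hhex). The groups were nevertheless apart, with higher KO values, in the alpha marker Irx2 (0.69) and the delta marker Rbp4 (0.56). They overlapped in the alpha markers Gcg (-0.10) and Ttr (-0.13) and the delta marker Sst (-0.04). Of 10 stromal markers, 6 were called higher, with a mean difference of 1.44, and their summed signal lay between 12.04 and 13.33 (log2) in WT arrays and between 13.78 and 14.52 in KO arrays. The summed endothelial markers lay between 13.20 and 13.34 in WT and between 13.42 and 13.68 in KO, with 0 of 8 called by limma. Acinar markers ranged widely within both groups, from 12.26 to 16.54 in WT arrays and from 12.04 to 16.58 in KO arrays. No marker read 0. The part of these markers in the proteasome gene values below was not tested.

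None of the 44 proteasome and related genes passed the test. By limma with Benjamini-Hochberg adjustment over all genes, 860 of 13644 genes were called at an adjusted p under 0.05, which is 6.30 percent, and 0 of 44 proteasome genes were among them. Before adjustment 6 of the 44 had p under 0.05, or 13.6 percent, against 21.8 percent of all genes tested. These were Psmc3ip, Psmd9 and Psme3ip1 with higher KO means and Psmc4, Psmd6 and Psme4 with lower ones. Run on the same values, the unpaired test of the methods called 0 of the 44 after adjustment, against 717 of all 13644 genes tested. Before adjustment 8 of the 44 had p under 0.05 by that test. Its share of all genes before adjustment was not counted, so these 8 have no background to be read against. The KO arrays lay wholly to one side of the WT arrays in 3 of the 44 genes, or 6.82 percent, against 12.5 percent of all genes tested. At a threshold of 1.5-fold together with an unadjusted p under 0.05, 1 of the 44 genes passed, against 9.18 percent of all genes tested. That gene was Psmc3ip, a meiotic recombination cofactor and no part of the proteasome.

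Among the 31 subunits of the core and regulatory particles, the differences were small and their errors narrow. Their median difference was 0.06, with 22 positive and 9 negative, while the median over all genes tested was 0.04 with 56.2 percent positive. The 95 percent interval of the difference stayed within 1.5-fold in either direction for 28 of the 31, the exceptions being Psmc4, Psmd13 and Psmd7. It held 0 for 29, the exceptions being Psmc4 and Psmd6. Such an exception is an unadjusted limma p under 0.05, found for 6.45 percent of the 31 against 21.8 percent of all genes tested. The share of all genes with an interval within 1.5-fold was not counted, so the 28 have no background to be read against. The median standard error was 0.115 for the 31 subunits and 0.153 over all genes tested. The spread between arrays of one genotype was 0.159 at the median for the subunits (SD), and 0.158 for the 5231 tested genes of the same signal range.

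**Figure D1:**
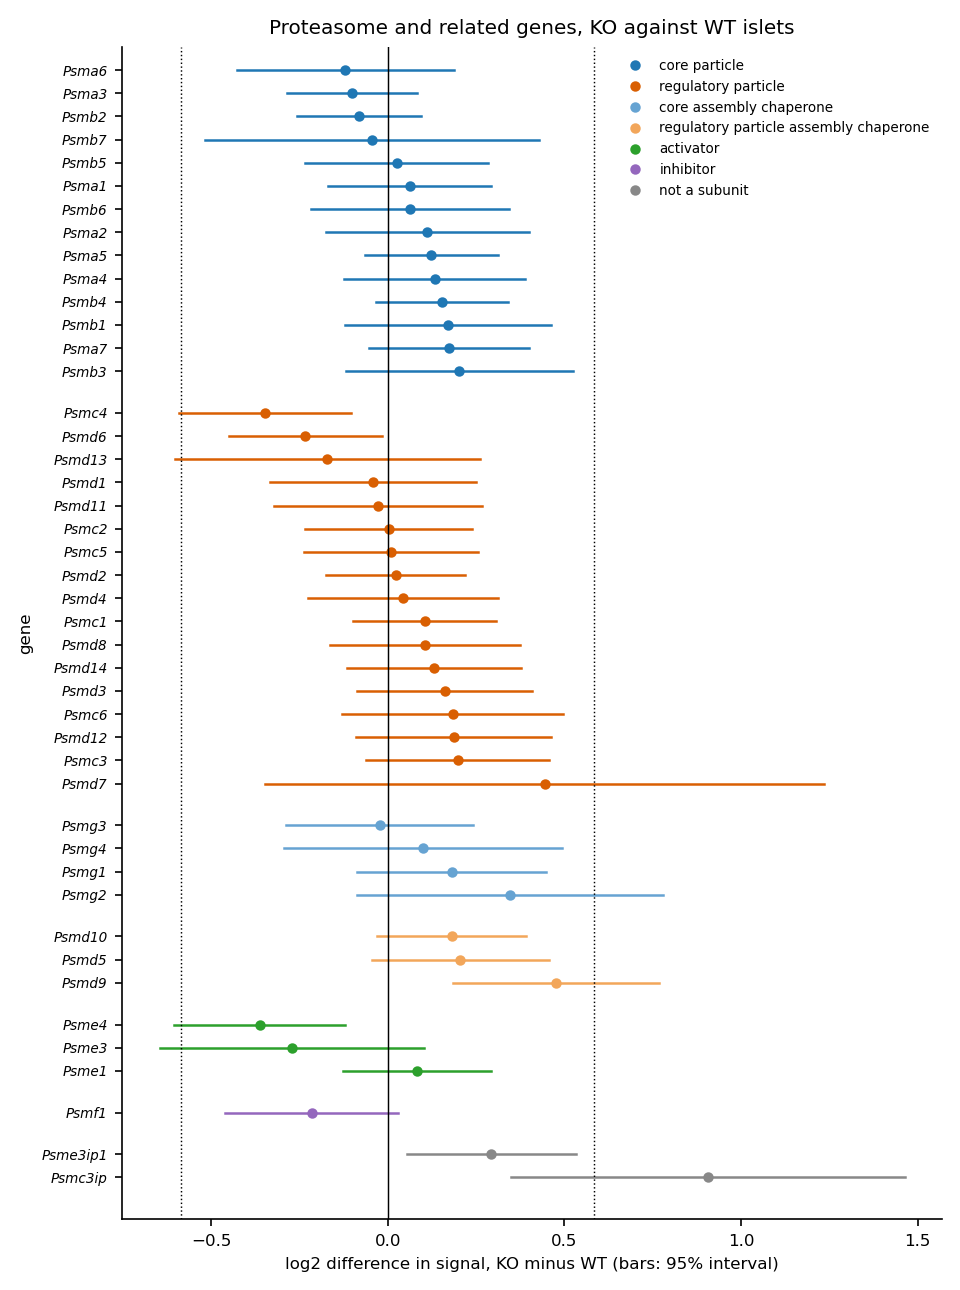
Log2 difference in signal between 4 KO and 5 WT arrays for each of the 44 tested genes (points) with its 95% interval (bars), grouped and coloured by role and ordered by size within a role. Dotted lines mark 1.5-fold in either direction. Most core and regulatory particle intervals span 0 and lie between the dotted lines, Psmc4 and Psmd6 lie below 0, and Psmd7 has the widest interval of the subunits.

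The catalytic subunits of the core showed no detectable difference. Psmb5, which carries the chymotrypsin-like site, read 11.11, 11.29, 10.86, 11.26 and 11.25 in WT arrays and 11.22, 10.99, 11.29 and 11.22 in KO arrays. The difference was 0.03, with a 95 percent interval from -0.23 to 0.28 (limma adjusted p = 0.934), and its sign turned when arrays were centred on their medians (-0.01). Psmb6, the caspase-like subunit, read 11.48, 11.37, 11.68, 11.66 and 11.85 in WT and 11.76, 11.59, 11.48 and 11.85 in KO. Here too the arrays of both genotypes were interleaved, with a difference of 0.06 and an interval from -0.22 to 0.34 (limma adjusted p = 0.833). Psmb7, the trypsin-like subunit, read 10.59, 10.95, 10.50, 10.55 and 10.26 in WT arrays and 10.13, 10.96, 10.82 and 10.19 in KO arrays. The KO arrays of Psmb7 fell apart into a high pair and a low pair, which gave a wide interval, from -0.52 to 0.43, around a difference of -0.05.

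The other core subunits gave the same picture. Within the alpha ring, which gates the entry to the barrel, the 7 genes had a median difference of 0.11, from -0.12 (Psma6) to 0.17 (Psma7). Psma7 read 11.49, 11.58, 11.46, 11.63 and 11.73 in WT arrays and 11.86, 11.53, 11.77 and 11.84 in KO arrays. KO array 2 lay among the WT arrays and the other three above them (0.17 ± 0.10, SE, limma adjusted p = 0.362). Psma5 had a difference of 0.12 ± 0.08 (limma adjusted p = 0.442). The 4 structural beta subunits had a median of 0.16, from -0.08 (Psmb2) to 0.20 (Psmb3).

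Psmb4, a structural beta subunit, had the lowest p of the core. It read 12.46, 12.52, 12.45, 12.63 and 12.57 in WT arrays and 12.71, 12.73, 12.75 and 12.54 in KO arrays, so that only KO array 4 fell among the WT values. Its difference was 0.15 ± 0.08 (SE, limma adjusted p = 0.323). Its second probe set, of similar brightness and with a suffix for probes that can bind other genes, gave -0.20, and the mean of both gave -0.02. Psmb3 read 10.13, 10.52, 10.62, 10.46 and 10.52 in WT and 10.97, 10.65, 10.62 and 10.37 in KO. The high first KO array and the low first WT array of Psmb3 lay at the ends of the range, and the difference was 0.20 ± 0.14 (SE, limma adjusted p = 0.459). It was 0.10 without KO array 1 and 0.12 without WT array 1. No core subunit had an unadjusted p under 0.05 by limma.

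The regulatory particle held the largest differences of the subunits, and they did not run one way. Psmc4, an ATPase of the base ring also known as Rpt3, read 11.98, 12.09, 12.14, 12.20 and 12.07 in WT arrays and 11.77, 11.62, 12.02 and 11.58 in KO arrays. KO array 3 overlapped the WT range and the other three KO arrays lay below it. The difference was -0.35 ± 0.11 (SE, limma adjusted p = 0.0951), and over the alternatives the adjusted p ran from 0.0341 to 0.334. The second probe set of Psmc4 had a difference of -0.11.

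Psmd6, a lid subunit also known as Rpn7, read 12.58, 12.56, 12.32, 12.42 and 12.58 in WT arrays and 12.35, 12.17, 12.14 and 12.37 in KO arrays. KO arrays 1 and 4 lay above WT array 3 and below every other WT array. The difference was -0.23 ± 0.10 (SE, limma adjusted p = 0.195), and its second probe set gave -0.11.

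Psmc3, the ATPase known as Rpt5, and the lid subunit Psmd12 (Rpn5) had the next lowest p values of the regulatory particle and leaned the other way. Psmc3 read 10.55, 10.31, 10.36, 10.62 and 10.67 in WT arrays and 10.70, 10.62, 10.55 and 10.92 in KO arrays, a difference of 0.20 ± 0.12 (SE, limma adjusted p = 0.361). Psmd12 read 10.87, 11.06, 10.59, 11.17 and 10.88 in WT and 11.03, 11.18, 11.16 and 11.02 in KO, a difference of 0.19 ± 0.12 (SE, limma adjusted p = 0.424). In both genes the groups overlapped. KO array 4 of Psmc3 lay well above every WT array, and without it the difference was 0.12. WT array 3 of Psmd12 was the lowest of its arrays, and without it the difference was 0.11.

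By class, the 6 ATPases had a median difference of 0.06, the 3 non-ATPase base subunits one of 0.02 and the 8 lid subunits one of 0.12. These classes hold only genes within the symbol rule. The subunit Sem1 lies outside that rule and had a difference of 0.01. The lid gene Psmd7, singled out after its values were seen, had the highest difference of the particle, 0.44, and the widest spread. Its WT arrays ran from 9.19 to 10.56 and its KO arrays from 9.62 to 10.78, and its interval reached from -0.35 to 1.23.

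**Figure D2:**
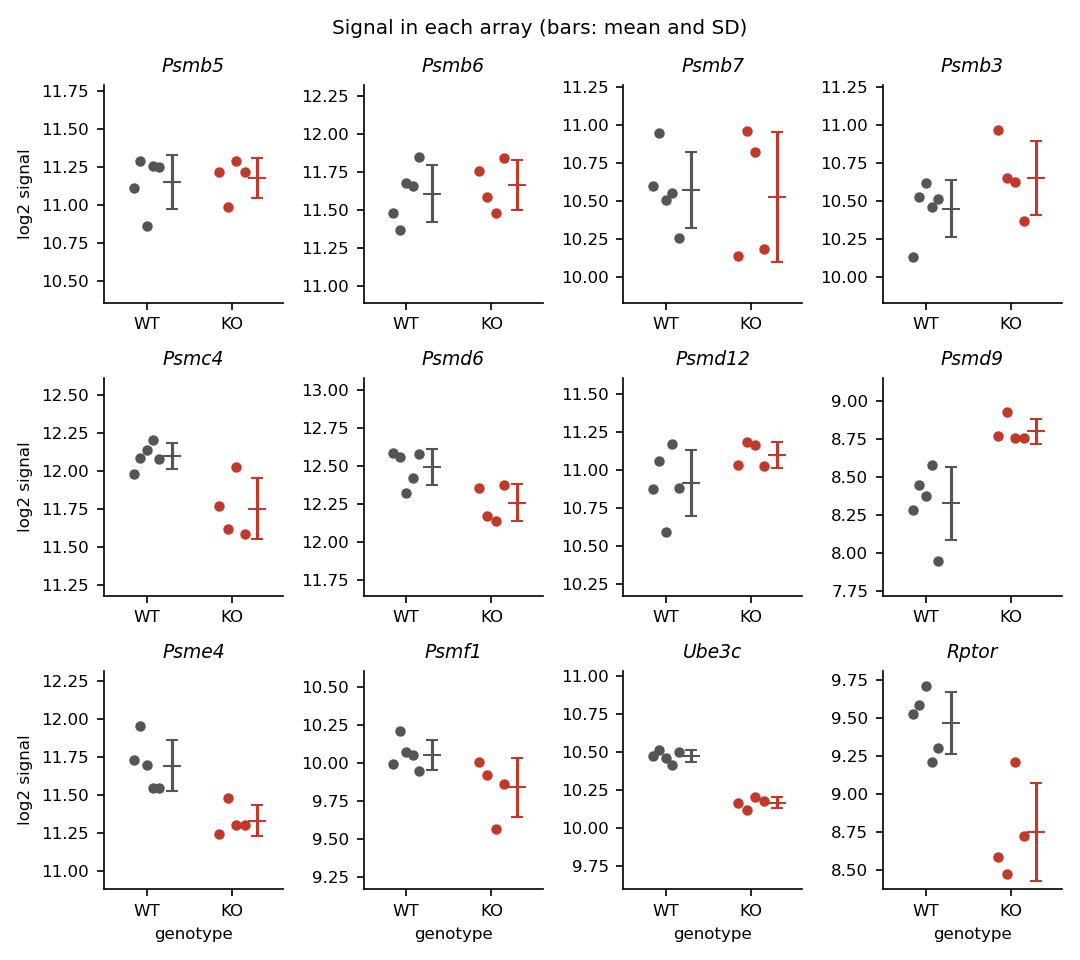
Log2 signal of 12 genes in each of the 5 WT arrays (grey) and 4 KO arrays (red), with the group mean and SD beside the points; every panel spans the same log2 range. The groups are interleaved for Psmb5, Psmb6 and Psmb7, partly separated for Psmc4 and Psmd6, and apart for Psmd9, Psme4, Ube3c and, narrowly, Rptor.

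The core and regulatory particle were then set side by side within each array. The mean over the 14 core genes was 11.64 ± 0.07 in WT (SD, n = 5) and 11.70 ± 0.05 in KO (SD, n = 4). The mean over the 17 regulatory particle genes was 11.09 ± 0.09 in WT and 11.13 ± 0.03 in KO. The group ranges overlapped for both, from 11.55 to 11.71 in WT against 11.63 to 11.76 in KO for the core, and from 10.96 to 11.20 against 11.09 to 11.16 for the regulatory particle. Over all genes tested the mean was 9.03 in WT and 9.10 in KO, a difference of 0.07, against 0.06 for the core and 0.04 for the regulatory particle.

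The core mean minus the regulatory particle mean was 0.47, 0.54, 0.63, 0.50 and 0.64 in the WT arrays and 0.59, 0.51, 0.56 and 0.63 in the KO arrays. These values were interleaved, with a group difference of 0.02 against an SD of 0.07 in WT and 0.05 in KO. The level of this quantity rests on probe brightness and says nothing of the ratio of the particles, so that its difference between genotypes alone can be read. The median gene-wise difference was 0.09 for the core and 0.04 for the regulatory particle. With arrays centred on their medians these became 0.05 and 0.00, the latter with 9 positive and 8 negative genes.

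**Figure D3:**
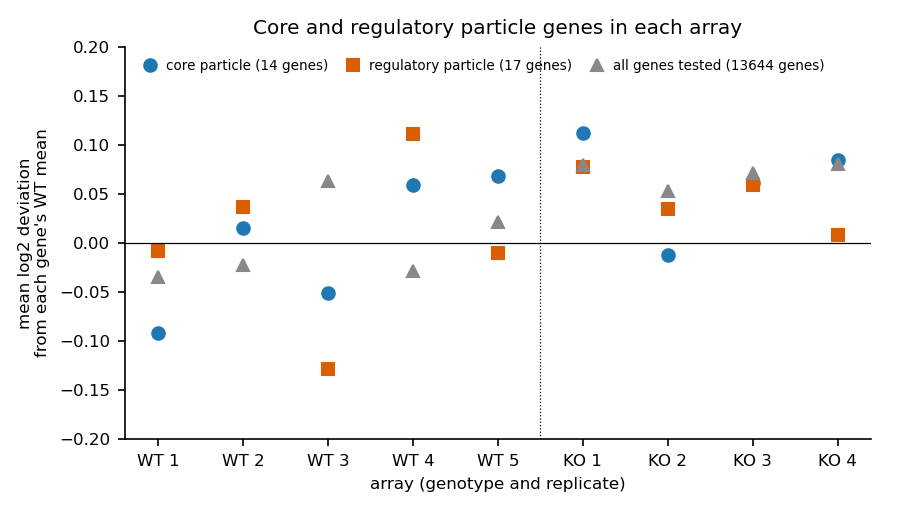
Mean log2 deviation from each gene's WT mean in every array, for the 14 core particle genes (circles), the 17 regulatory particle genes (squares) and all 13644 genes tested (triangles); the dotted line parts WT from KO arrays. Core and regulatory particle values of the KO arrays lie within or close to the range of the WT arrays, and all genes together lie a similar distance above 0 in KO.

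The genes outside both particles held the clearest separations. Psme4 encodes PA200, an ATP-independent activator that caps the core. It read 11.73, 11.95, 11.70, 11.55 and 11.54 in WT arrays and 11.25, 11.48, 11.30 and 11.30 in KO arrays. All 4 KO arrays lay below all 5 WT arrays. The difference was -0.36 ± 0.11 (SE, limma adjusted p = 0.0829), and over the alternatives the adjusted p ran from 0.0299 to 0.40. It passed when the lowest 50 percent of genes was left out (0.0439) and when limma's variances followed a trend with signal (0.0299).

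Psme4 was read by 6 probe sets in all, and each gave a lower KO mean, from -0.12 to -0.55, although the groups overlapped in the 5 dimmer ones. The brightest carries a suffix that marks probes shared by several transcripts, and the best one without it gave -0.17. Psme3, a nuclear activator, had a difference of -0.27, and Psme1, a subunit of the interferon-inducible activator PA28, one of 0.08. Neither had a limma p under 0.05. Psmf1, which encodes the proteasome inhibitor PI31, read 9.99, 10.21, 10.07, 10.05 and 9.95 in WT and 10.01, 9.92, 9.57 and 9.86 in KO. Only KO array 1 lay inside the WT range (-0.22 ± 0.11, SE, limma adjusted p = 0.288), and all 4 probe sets of Psmf1 had negative differences. The brightest carries the same suffix as that of Psme4, and the best one without it gave -0.07, while leaving out KO array 3 gave -0.12.

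Psmd9, a chaperone of the assembling ATPase ring, read 8.28, 8.45, 8.37, 8.58 and 7.94 in WT arrays and 8.76, 8.92, 8.75 and 8.75 in KO arrays. The lowest KO array exceeded the highest WT array, and the KO arrays formed a narrow band. The difference was 0.48 ± 0.13 (SE, limma adjusted p = 0.0652), with adjusted p from 0.0282 to 0.58 over the alternatives. It passed when the lowest 50 percent of genes was left out (limma adjusted p = 0.0282). With the mean of its probe sets the difference was 0.33 (limma adjusted p = 0.58). Both further probe sets of Psmd9 had positive differences, 0.23 and 0.30, but their groups overlapped. The one with 0.30 was dim, with a mean of 5.69 near the limit of 5.51 below which genes were left out.

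Psmd10, also known as gankyrin, and Psmd5 are chaperones of the same ring. Psmd10 read 9.27, 9.07, 9.17, 9.40 and 9.08 in WT and 9.32, 9.39, 9.32 and 9.47 in KO, where WT array 4 lay inside the KO range and the other WT arrays below it (0.18 ± 0.09, SE, limma adjusted p = 0.302). Psmd5 had a difference of 0.21. The 4 chaperones of core assembly, Psmg1 to Psmg4, had a median difference of 0.14, from -0.02 (Psmg3) to 0.35 (Psmg2). None had a limma p under 0.05 in the main setting, although Psmg1 and Psmg2 did without WT array 4.

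Psme3ip1, whose product binds the activator Psme3, read 9.44, 9.78, 9.81, 9.62 and 9.84 in WT arrays and 10.13, 9.94, 9.96 and 9.93 in KO arrays. The groups did not overlap (0.29 ± 0.11, SE, limma adjusted p = 0.143). Psmc3ip, from 5.92 to 6.87 in WT and from 6.82 to 7.53 in KO, was dim, and its difference of 0.91 had a limma adjusted p of 0.0652.

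The 46 genes were covered by 99 probe sets, 88 of them above the mean signal below which genes were left out. Of the 23 genes with several probe sets above that level, 15 had differences of one sign, positive in 9 and negative in 6. The same share over all genes was not counted, so these counts have no background to be read against. The genes with only negative differences were Psmc4, Psmd6, Psme3, Psme4, Psmf1 and Psmg3. In the remaining 8 the signs differed between probe sets.

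Psma6, named here after its values were seen, was one of these 8. Its brightest probe set, whose suffix marks probes that can bind other genes, gave -0.12 with overlapping groups. The second, nearly as bright, read 11.85, 12.18, 12.08, 12.19 and 12.00 in WT and 12.32, 12.25, 12.35 and 12.31 in KO, with every KO array above every WT array and a difference of 0.25. The other two, both dimmer, gave 0.29 and 0.31. Psmd13, another of the 8 and also named after its values were seen, had a separated probe set in the other direction. This was its second brightest, with the same suffix as the brightest of Psma6. It ran from 9.07 to 9.39 in WT and from 8.90 to 9.04 in KO, a difference of -0.27. The brightest probe set of Psmd13 gave -0.17 with overlapping groups.

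**Figure D4:**
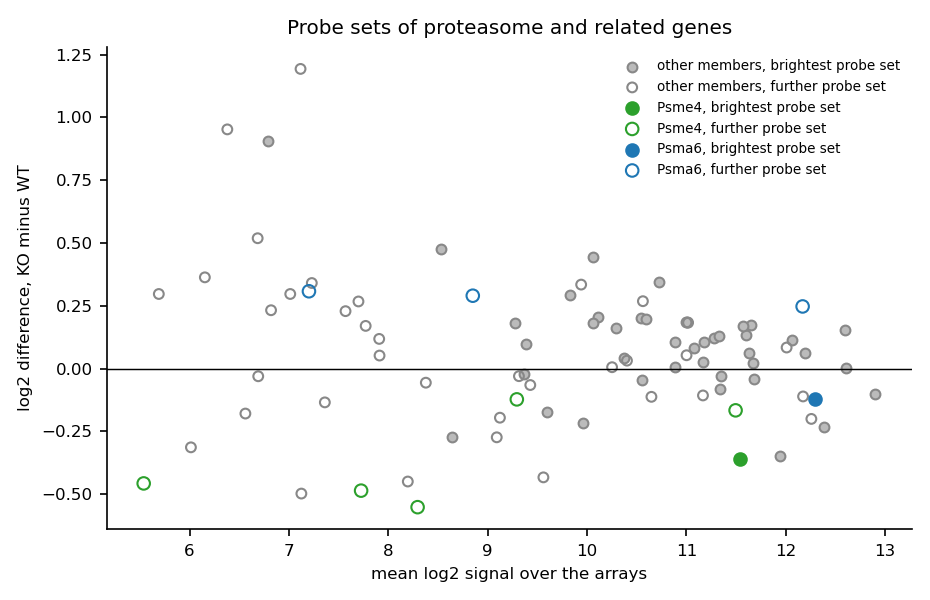
Log2 difference between KO and WT for the 88 probe sets of proteasome and related genes above that signal, against their mean log2 signal over all arrays. Filled points are the brightest probe set of a gene and open points its further ones; the 6 of Psme4 (green) all lie below 0, whereas for Psma6 (blue) the brightest lies below 0 and the other three above.

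Promoters were read for the core of the antioxidant response element, TGACNNNGC, to which Nfe2l1 and its relatives bind. RefSeq promoters (GRCm38.p6, from 250 bases before to 50 after the annotated start) were found for 38 of the 46 genes. The motif occurred on either strand in 6 of the 38 (15.8 percent), against 3781 of 27025 genes (14 percent) and 1827 of 10990 tested genes (16.6 percent). The 6 were Psmb5, Psmb6, Psmc6, Psmd12, Psmd9 and Psme4. The 4 with the motif within 100 bases of the start are printed here from 100 bases before to 10 bases after it, as they are the catalytic genes Psmb5 and Psmb6 with interleaved groups and the genes Psmd9 and Psme4 whose groups were apart. Each is given 5′ to 3′ on the strand of its gene, with the motif or its reverse complement in capitals.
Psmb5, chr14:54617986-54618095, minus strand: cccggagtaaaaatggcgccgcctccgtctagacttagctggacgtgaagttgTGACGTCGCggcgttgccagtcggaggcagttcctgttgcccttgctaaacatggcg
Psmb6, chr11:70525257-70525366, plus strand: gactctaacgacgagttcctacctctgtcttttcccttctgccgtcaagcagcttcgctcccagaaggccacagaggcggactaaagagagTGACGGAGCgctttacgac
Psmd9, chr5:123228090-123228199, plus strand: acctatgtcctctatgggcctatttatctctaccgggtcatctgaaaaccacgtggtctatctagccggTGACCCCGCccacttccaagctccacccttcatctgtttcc
Psme4, chr11:30771675-30771784, plus strand: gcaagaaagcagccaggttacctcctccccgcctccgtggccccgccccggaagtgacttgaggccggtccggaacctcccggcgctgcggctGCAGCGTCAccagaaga

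The motif starts 47 bases before the annotated start in Psmb5, 9 in Psmb6, 31 in Psmd9 and 7 in Psme4, in the last on the opposite strand. A match of these letters is a description of the sequence and was not tied to binding. The 6 genes with the motif had differences from -0.36 to 0.48. Among the 25 subunits with a promoter, the median difference was 0.12 for the 4 with the motif and 0.04 for the 21 without. Nfe2l1 itself read 11.27, 11.45, 11.40, 11.32 and 11.56 in WT arrays and 11.25, 11.16, 11.16 and 11.35 in KO arrays. Its values overlapped at KO array 4 (-0.17 ± 0.09, SE, limma adjusted p = 0.314).

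The immunoproteasome subunits, which replace the catalytic subunits under interferon, showed no detectable difference in their brightest probe sets. Psmb8 read 9.28, 8.94, 8.93, 8.90 and 8.98 in WT and 9.06, 8.65, 9.12 and 9.07 in KO, and its difference was -0.03 ± 0.13 (SE, limma adjusted p = 0.923). Its second probe set was dim (mean 5.86), with a suffix for probes that can bind other genes, and gave 0.98 with overlapping groups. The mean of both had a difference of 0.47 (limma adjusted p = 0.343). Psmb9 had a difference of -0.12 ± 0.09 (limma adjusted p = 0.509) and Psmb10 one of 0.18 ± 0.15 (limma adjusted p = 0.548). The 6 interferon response genes measured all had higher KO means, with 0 called by limma, and their summed signal ran from 12.88 to 13.22 in WT arrays and from 13.18 to 13.28 in KO arrays.

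Of 30 other genes of the ubiquitin-proteasome pathway, among them the subunit Sem1, assembly factors, ubiquitin receptors and shuttles, 21 were tested. The rest were not analysed here. By limma 0 of the 21 were called higher and 1 lower, or 4.76 percent against 6.30 percent of all genes tested. An unadjusted p under 0.05 was found for 3, or 14.3 percent against 21.8 percent, and the median difference was 0.01. The one called was Ube3c, a ubiquitin ligase that works on the proteasome and extends ubiquitin chains. It read 10.47, 10.51, 10.46, 10.41 and 10.50 in WT arrays and 10.16, 10.12, 10.20 and 10.17 in KO arrays. Both groups were tight and did not overlap (-0.31 ± 0.07, SE, limma adjusted p = 0.0357). The call was lost in 13 of 18 alternatives, over which the adjusted p ran from 0.00159 to 0.499, while the KO mean stayed lower in each. Leaving out any single array of either genotype lost it (limma adjusted p from 0.0536 to 0.101).

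Usp14 and Uchl5 are the ubiquitin-trimming enzymes of the regulatory particle. Usp14 had a difference of 0.22 ± 0.16 (SE, limma adjusted p = 0.474) in a probe set whose suffix marks probes that can bind other genes. The best one without a suffix gave 0.49, and leaving out single arrays gave 0.13 to 0.32. Uchl5, named after its values were seen, read 9.62, 9.61, 9.81, 9.76 and 10.08 in WT and 10.15, 10.14, 10.12 and 10.08 in KO. Its lowest KO array lay just above the highest WT array, and its difference was 0.35 ± 0.11 (SE, limma adjusted p = 0.0951). Pomp, the chaperone of core maturation, had a difference of -0.09 ± 0.12 (limma adjusted p = 0.721).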

How the data were processed

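Islet RNA of 5 WT and 4 KO pools was hybridised to Affymetrix mouse expression arrays with a 3′ IVT labelling kit. The authors deposited 1 table of log2 signals and analysed them in GeneSpring. How probe sets were summarised and normalised is not given in the sources used here. All columns were matched to samples by name. Arrays have no read depth, so their number limits the precision. Probe sets were named from the platform annotation (45037 in all, 34945 with 1 gene, 932 with several and 9160 with none), and single-gene probe sets were kept.

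For each gene the probe set with the highest mean was taken, the lowest 25 percent of genes by mean were left out, and KO was compared with WT with limma 3.58.1 (lmFit and eBayes, two-sided, Benjamini-Hochberg adjustment) in R 4.3.3. Groups came from the sample titles. The methods describe the pools as independent biological replicates. The procedure was tested on simulated data. Named genes were Rptor, called genes, the catalytic subunits, the 4 lowest p values in the core, in the regulatory particle and among the activators, inhibitor and chaperones, genes with non-overlapping groups, the immunoproteasome subunits, Pomp, Nfe2l1 and Usp14. The genes and lists were chosen with earlier results of these data known, so counts over them are descriptions.

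The alternatives were no filter or a stricter one, the mean of all probe sets, probe sets without cross-hybridising suffixes, median centring, quantile normalisation, an intensity trend, the methods' t-test, a replicate block and leaving out each array.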

Additional observations from a re-analysis of the deposited data

Results flagged for a closer look

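In each genotype the highest and lowest array of the 24 named genes, and of the mean levels of the core and regulatory particle, were compared with the rest of the group, in 52 groups of values. In 4 of them 1 array stood further from its group than Dixon's 95 percent limit, and chance gives about 1 in 20 groups. Psmd9 was highest in KO array 2 at 8.92 (log2), with the next KO array at 8.76. Psme3ip1 was highest in KO array 1 at 10.1, with the next at 9.96. Psmb8 was highest in WT array 1 at 9.28, with the next WT array at 8.98, and lowest in KO array 2 at 8.65, with the next KO array at 9.06.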

How the results depend on the processing

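Over 18 alternative settings the median differences of the core particle (0.05 to 0.14) and the regulatory particle (0.00 to 0.08), and the difference of the medians (0.01 to 0.09), moved from 0.09, 0.04 and 0.04 by less than the pooled SD of the particle means between arrays of one genotype (0.06, 0.07 and 0.07). This SD is of single arrays and is larger than the error of a difference of group means, so staying under it says little about stability. The regulatory particle median came closest to 0 with median centring and, at 0.0045, without WT array 1. Proteasome genes called numbered 0 in 16 settings. They numbered 2 of 43 when the lowest 50 percent of genes was left out (Psmd9 and Psme4), where 1080 of all 9096 genes were called. With an intensity trend they numbered 2 of 44 (Psmc4 and Psme4), where 1260 of all 13644 genes were called. Over all genes, calls numbered 452 without a filter, 317 with the mean of a gene's probe sets, 474 with median centring and 61 with the replicate block, and between 372 (without KO array 1) and 800 when one array was left out, with counts more than 1.5 times lower without WT array 1 (488) or 2 (567) or KO array 2 (458), 3 (425) or 4 (468) as well. The cause was not tested. Same-numbered arrays correlated between -0.04 and 0.12 in their deviations, so the numbers were not taken to pair the samples, and 0 proteasome genes were called with the block. Signs turned for Psmb4 (-0.024), Psma5 (-0.0011) and Psmb8 (0.47) with the mean of the probe sets, for Psmb5 with median centring (-0.015), and when one array was left out for Psmb5 (-0.0477 to 0.0889), Psmb7 (-0.191 to 0.0844) and Psmb8 (-0.082 to 0.0769). Rptor lost its call in 11 of 18 settings, with a difference of -0.16 at the smallest. Leaving out one array also moved the small differences of Psmb6 (0.0022 to 0.124), Psmb10 (0.09 to 0.29) and Pomp (-0.17 to -0.05).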
